A study of Mus musculus with 16 samples.

Results

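Messenger RNAs of 10 genes that mark dendritic cells or carry costimulation were followed in the kidneys of lupus-prone and control mice. The genes are Itgax, Cd80, Cd86, Cd40, Cd209a, Clec9a, Flt3, Zbtb46, Batf3 and Siglech, picked by name and found on the array through the transcript that each probe is annotated with. They are 10 of 22911 gene symbols on the array, and 19 of its 56605 probes belong to them. The study asks what STING, an adaptor that couples sensing of DNA in the cytosol to type I interferon, does in mice that lack the inhibitory Fc receptor gene Fcgr2b and develop lupus-like disease. Whole kidney RNA of 16 mice at 6 months of age was measured on one-color Agilent arrays, 1 mouse per array and 4 mice per genotype. The study also stained cells for CD11c, the product of Itgax, and those stainings were not used here.

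WT mice are labelled C57BL/6 and, by the study's methods, were purchased. Mice called Fcgr2b-ko in the labels are the lupus group on a 129/C57BL/6 background. The study's legends for the kidney arrays differ on this group, with Fcgr2b-/-.Sting wt/gt in the supplement and Fcgr2b-/- in the main text, so whether 1 Sting copy was mutated in these animals is not known. The Fcgr2b-ko.Sting-ko mice, called double-deficient from here on, carry the same 129/C57BL/6 label and came from crossing both deficient lines. Sting-ko mice are labelled C57BL/6 and carry Goldenticket (Sting gt/gt), a functional knockout of STING. Loss of Fcgr2b and the mixed background go together in this design and cannot be told apart.

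Dendritic cells take up antigen in tissues, show it to T cells on MHC class II molecules and license those T cells through costimulatory ligands such as CD80 and CD86. Conventional dendritic cells grow under the receptor FLT3 and divide into a cross-presenting type that needs BATF3 and carries CLEC9A and a second type that shares markers with monocyte-derived cells, while plasmacytoid dendritic cells are known for type I interferon. A healthy kidney holds a network of such cells between its tubules, and in lupus nephritis they accumulate with macrophages, which also can carry CD11c, CD80 and CD86.

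Each value given for a gene is the log2 of its processed signal minus the 75th percentile of the same array, so that 1 unit is a 2-fold difference and negative values lie below that percentile. Testing was limited to the 35628 probes whose signal was well above background on 4 or more arrays, and a gene is represented by its brightest tested probe. All 10 members had such a probe, 7 of them well above background on all 16 arrays, with Cd209a and Clec9a on 15 arrays and Cd40 on 13. In whole kidney, more cells of a type and more RNA per cell cannot be told apart. The 16 arrays lie on 2 slides. Slide 1 held WT 1 and 2, Fcgr2b-ko 1, 2 and 4, double-deficient 1 and Sting-ko 1 and 2, and the other arrays were on slide 2. Probes well above background numbered 35507, 29811, 30009 and 33048 in WT mice 1 to 4 and 35564, 28441, 33676 and 33887 in Fcgr2b-ko mice. They numbered 31380, 33593, 35167 and 32956 in double-deficient mice and 33830, 34817, 30744 and 33183 in Sting-ko mice, and the lowest count of all was that of Fcgr2b-ko 2.

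The tissue and genotype labels were set against marker genes. All 8 kidney markers were well above background on all 16 arrays, among them the loop of Henle gene Umod at 6.90 to 8.81 and the proximal tubule genes Lrp2 at 6.59 to 7.83 and Slc34a1 at 5.33 to 8.18. The probe of Fcgr2b read 2.13, 1.91, 1.60 and 1.14 in WT mice and 0.70, 0.02, 0.06 and 0.19 in Fcgr2b-ko mice, and these groups did not overlap. It read -0.04, 0.50, -0.40 and -0.24 in double-deficient and 1.54, 1.05, 0.70 and -0.19 in Sting-ko mice, so that Sting-ko 4, whose label names no loss of Fcgr2b, lay below all Fcgr2b-ko mice. Fcgr2b differed by -1.45 in Fcgr2b-ko against WT, with an exact permutation p of 0.0286, the smallest that 4 against 4 mice allow, and a limma adjusted p of 0.385. In Sting-ko against WT it differed by -0.92 with overlap (exact p 0.0571, limma p 0.0182 unadjusted and 0.732 adjusted). Its probe was well above background on all 16 arrays, whether it lies in the deleted part is not known, and it does not tell the labels apart in each mouse, so genotypes are given as labelled. Sting1 was higher by 1.42 in Fcgr2b-ko than in WT (exact p 0.229), and by 0.03 with Fcgr2b-ko 1 and 4 both left out. The labels give no sex, and 4 Y-linked genes were all well above background in 6 mice (WT 1 and 2, Fcgr2b-ko 3, double-deficient 2 and 4, Sting-ko 3) and none of them in the other 10.

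**Figure D1:**
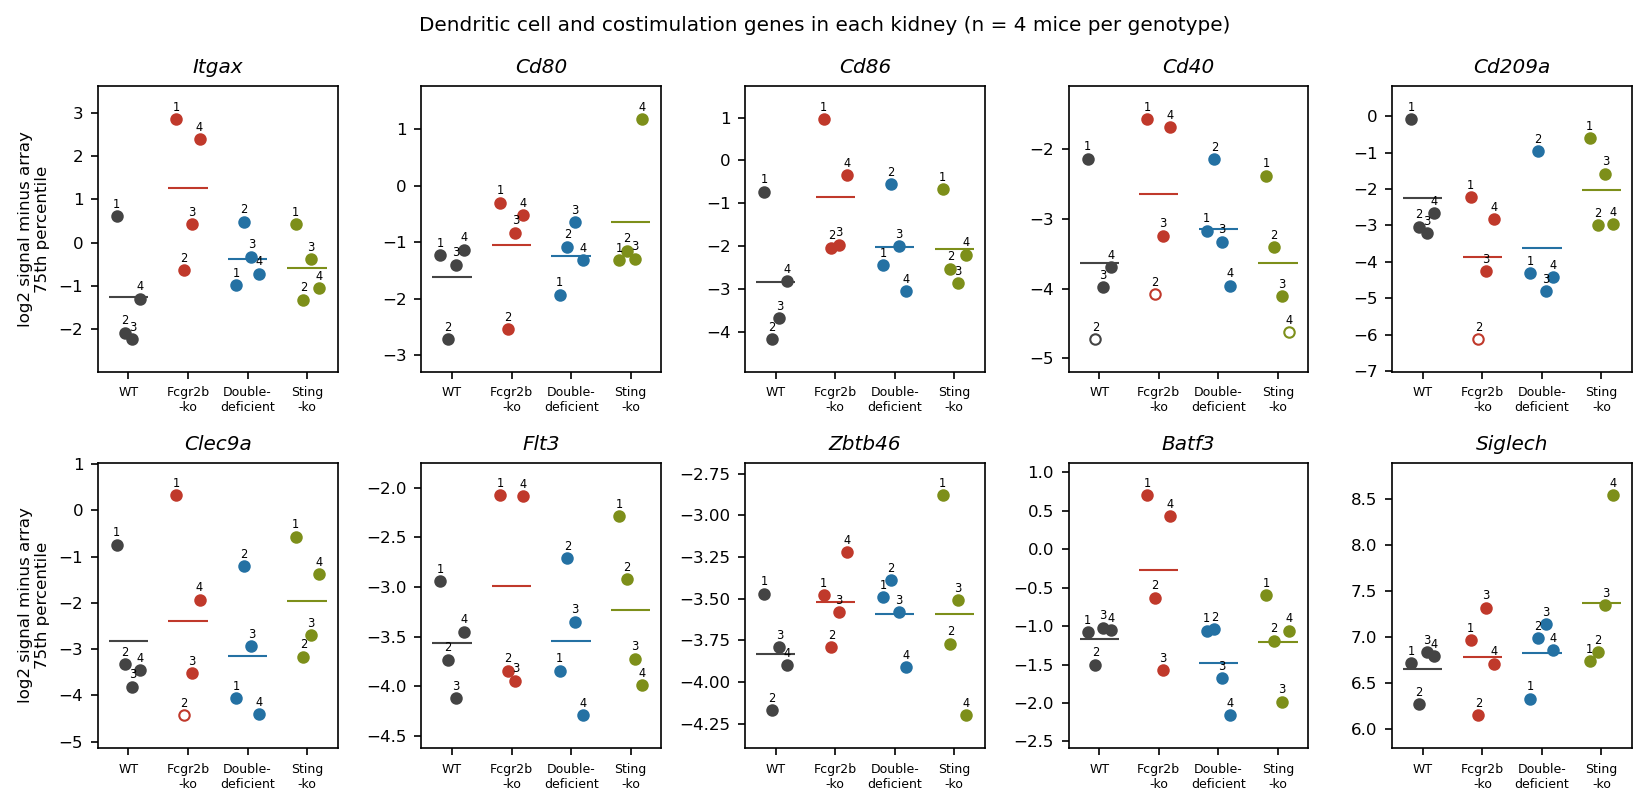
Log2 signal minus the array's 75th percentile (vertical axis) for the 10 genes in each of the 16 kidneys by genotype, with points numbered by mouse, open where not well above background, and a line at each group mean. Fcgr2b-ko 1 and 4 lie on top of their group for 9 of the 10 genes, and no gene separates any pair of genotypes.

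The comparison of Fcgr2b-ko with WT asks how the lupus-prone kidney differs from the normal one. The CD11c gene Itgax was 5.71-fold higher in Fcgr2b-ko kidneys and the costimulatory ligand gene Cd86 was 4.02-fold higher, each with overlapping groups (n = 4). The lectin gene Cd209a was lower, at -1.61 on the log2 scale, or -0.85 without Fcgr2b-ko 2, where it was not well above background. Of the 10 members 9 were higher in Fcgr2b-ko, where 43.4% of all tested probes were, and the members' median difference was 0.57 beside -0.06 over all probes. One of the 9, Siglech, was higher by 0.13 but at -0.02 when arrays were scaled by their medians, a scaling that moves the median of all probes in this comparison to -0.21. At least 2-fold higher were 2 members, against 4.33% of probes (1541). Cd209a was the 1 member at least 2-fold lower, a count that has no share of all probes beside it. An unadjusted limma p under 0.05 was reached by the 2 members Itgax and Cd86, both higher, against 2.64% of probes higher at that limit (939). Called at an adjusted p under 0.05 with at least a 2-fold difference were 0 members and 18 probes (0.0505%), 17 of them higher. The tests take the mice as independent, yet the animal labels of WT 3 and 4, of Fcgr2b-ko 4 and double-deficient 3, and of Fcgr2b-ko 3 and double-deficient 4 begin with a shared number whose meaning is not stated, and with that number as a random block 3 probes were called. By the exact Mann-Whitney test unadjusted, 144 probes passed with the same fold limit, none of them a member, since no member's groups were free of overlap; 0.62% of probes (221) lay higher in Fcgr2b-ko with no overlap.

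The Fcgr2b-ko mice 1 and 4 were the top pair of their group for 9 of the 10 members. The labels give no disease severity for single mice, which the study describes as uneven in this genotype. It singles out a pair of severe mice by numbers that could not be matched to these arrays, so whether they are Fcgr2b-ko 1 and 4 is not known. With Fcgr2b-ko 1 and 4 both left out, a choice made after seeing the data, 5 of 10 members were higher and the members' median difference was 0.01. Since the pair was picked for its high values, while the high WT 1 was kept, a smaller difference follows from the choice and is no test. Itgax stayed higher by 1.15 and Cd86 by 0.85. The median was 0.31 without Fcgr2b-ko 1, 0.34 without Fcgr2b-ko 4, 0.86 without Fcgr2b-ko 3 and 1.04 without Fcgr2b-ko 2. The 18 called probes became 0 without WT 2, WT 3, WT 4 or Fcgr2b-ko 4, 3 without Fcgr2b-ko 1, 37 without Fcgr2b-ko 2, and 5 without Sting-ko 2 or any 1 double-deficient mouse.

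Itgax encodes the integrin chain CD11c, the surface protein most used to mark dendritic cells in the mouse, which some macrophages and NK cells also carry. Its values were 0.61, -2.09, -2.23 and -1.30 in WT mice 1 to 4 and 2.86, -0.64, 0.43 and 2.39 in Fcgr2b-ko mice 1 to 4. Double-deficient mice read -0.98, 0.48, -0.33 and -0.72, and Sting-ko mice 0.42, -1.32, -0.39 and -1.05. Fcgr2b-ko 1 and 4 stood above every other mouse, the remaining Fcgr2b-ko mice lay within the range of WT, and WT 1 was high for its group. Group means were -1.25 ± 1.31 (SD, n = 4) in WT, 1.26 ± 1.65 in Fcgr2b-ko, -0.39 ± 0.64 in double-deficient and -0.59 ± 0.78 in Sting-ko mice. Among neighbours in the order of the means, the step of 1.65 from Fcgr2b-ko to double-deficient was larger than the pooled SD of 1.16, and the steps of 0.20 and 0.67 down to Sting-ko and WT were smaller. Itgax was higher in Fcgr2b-ko than in WT by 2.51 (95% interval 0.92 to 4.11, 1.89-fold to 17.2-fold), with 4 of 4 mice above the WT mean and 2 above the highest WT mouse. Its exact permutation p was 0.0857 and its limma p was 0.00424 unadjusted and 0.791 adjusted over all probes. The difference was 3.13 without WT 1, 3.15 without Fcgr2b-ko 2 and 1.15 with Fcgr2b-ko 1 and 4 both left out.

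Cd86 and Cd80 encode the B7 ligands that engage CD28 on T cells, and Cd40 the receptor through which T cells activate antigen-presenting cells. For Cd86, WT mice read -0.73, -4.17, -3.69 and -2.82 and Fcgr2b-ko mice 0.97, -2.04, -1.97 and -0.35. Double-deficient mice read -2.44, -0.55, -2.01 and -3.06, and Sting-ko mice -0.67, -2.53, -2.87 and -2.20. As with Itgax, Fcgr2b-ko 1 and 4 were the highest of all mice, and 1 mouse of each other genotype (WT 1, double-deficient 2, Sting-ko 1) came close to Fcgr2b-ko 4. Cd86 was higher in Fcgr2b-ko than in WT by 2.01 (95% interval 0.27 to 3.74, 1.21-fold to 13.4-fold), with 4 of 4 mice above the WT mean and 2 above the highest WT mouse. The exact permutation p was 0.114, and limma gave 0.0262 unadjusted and 1 adjusted. The difference was 1.40 without Fcgr2b-ko 1, 2.71 without WT 1, 1.14 with normexp and 0.85 with Fcgr2b-ko 1 and 4 left out. Means were -2.85 ± 1.52 in WT, -0.85 ± 1.44 in Fcgr2b-ko, -2.01 ± 1.07 in double-deficient and -2.07 ± 0.97 in Sting-ko mice, and the steps of 1.17, 0.06 and 0.78 in their order were all below the pooled SD of 1.27.

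Cd80 read -1.23, -2.71, -1.40 and -1.13 in WT and -0.30, -2.54, -0.83 and -0.52 in Fcgr2b-ko mice. In double-deficient mice it read -1.93, -1.08, -0.64 and -1.32, and in Sting-ko mice -1.32, -1.15, -1.29 and 1.18. A single mouse, Sting-ko 4, was the highest of all 16, and mouse 2 was far below the rest in both WT and Fcgr2b-ko. Cd80 was higher by 0.57 in Fcgr2b-ko than in WT (SE 0.60, exact p 0.4) and lower (-0.07) with Fcgr2b-ko 1 and 4 left out. Sting-ko had the highest mean, and the steps of 0.40, 0.20 and 0.37 in the order Sting-ko, Fcgr2b-ko, double-deficient and WT were below the pooled SD of 0.92.

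Cd40, well above background on 13 arrays, read -2.14, -4.72, -3.98 and -3.69 in WT and -1.57, -4.08, -3.24 and -1.69 in Fcgr2b-ko mice. Double-deficient mice read -3.17, -2.15, -3.33 and -3.96, and Sting-ko mice -2.38, -3.41, -4.11 and -4.62. Its probe was not well above background in WT 2, Fcgr2b-ko 2 and Sting-ko 4, and Fcgr2b-ko 1 and 4 were again the highest. The difference between Fcgr2b-ko and WT was 0.98 (SE 0.66, exact p 0.229), and -0.03 without that pair. Steps between neighbouring means were 0.50, 0.48 and 0.00 against a pooled SD of 1.02.

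Cd209a and Clec9a encode C-type lectins. Cd209a, a relative of human DC-SIGN carried by monocyte-derived and type 2 conventional dendritic cells, read -0.08, -3.03, -3.21 and -2.66 in WT and -2.22, -6.11, -4.26 and -2.82 in Fcgr2b-ko mice. Double-deficient mice read -4.31, -0.96, -4.81 and -4.41, and Sting-ko mice -0.60, -3.00, -1.58 and -2.96. WT 1 was the highest of all mice, 3 of 4 double-deficient mice and 2 of 4 Fcgr2b-ko mice lay below the lowest WT mouse, and Fcgr2b-ko 2 was not well above background. Cd209a was the 1 member lower in Fcgr2b-ko than in WT, at -1.61 (95% interval -3.71 to 0.50, exact p 0.257, limma adjusted p 1), with 3 of 4 mice below the WT mean. That value was -0.85 without Fcgr2b-ko 2, -0.88 without WT 1, -0.68 with normexp, which takes the median in place of the processed signal and another background correction, and -2.94 without Fcgr2b-ko 1 and 4. In double-deficient against WT mice its difference was -1.37 (exact p 0.343), or -0.65 without WT 1, -2.26 without double-deficient 2 and -0.67 with normexp. Its means lay at a pair of levels, Sting-ko -2.03 ± 1.16 and WT -2.25 ± 1.46 above double-deficient -3.62 ± 1.79 and Fcgr2b-ko -3.85 ± 1.73, yet the step of 1.37 between them was below the pooled SD of 1.55.

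Clec9a, a receptor for dead cells on type 1 conventional dendritic cells, read -0.74, -3.33, -3.81 and -3.45 in WT and 0.32, -4.43, -3.52 and -1.93 in Fcgr2b-ko mice. In double-deficient mice it read -4.06, -1.20, -2.94 and -4.40, and in Sting-ko mice -0.57, -3.16, -2.70 and -1.38. Fcgr2b-ko held both the highest and the lowest of the 16 values, and its lowest, in mouse 2, was not well above background. The difference from WT was 0.44 (95% interval -1.68 to 2.56, exact p 0.743), -0.46 without Fcgr2b-ko 1, 1.14 without WT 1, 1.12 without Fcgr2b-ko 2 and -1.14 without Fcgr2b-ko 1 and 4. All steps between neighbouring means, 0.44, 0.44 and 0.31, were below the pooled SD of 1.57.

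Flt3 encodes the receptor for the growth factor that dendritic cell precursors depend on. It read -2.94, -3.73, -4.12 and -3.45 in WT and -2.08, -3.84, -3.94 and -2.09 in Fcgr2b-ko mice. Double-deficient mice read -3.84, -2.71, -3.35 and -4.29, and Sting-ko mice -2.29, -2.92, -3.72 and -3.99. Fcgr2b-ko split into a high pair, mice 1 and 4, and a low pair inside the WT range. The difference from WT was 0.57 (SE 0.51, exact p 0.343) and -0.33 without the high pair. Neighbouring means lay 0.24, 0.32 and 0.01 apart, below the pooled SD of 0.77.

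Batf3 and Zbtb46 encode transcription factors. BATF3, an AP-1 family factor needed for type 1 conventional dendritic cells, is encoded by a gene that read -1.08, -1.50, -1.02 and -1.05 in WT and 0.70, -0.63, -1.57 and 0.43 in Fcgr2b-ko mice. Double-deficient mice read -1.06, -1.04, -1.68 and -2.16, and Sting-ko mice -0.60, -1.19, -1.98 and -1.06. WT mice were close together, 3 of 4 Fcgr2b-ko mice lay above all of them, and Fcgr2b-ko 3 lay below all of them. The difference from WT was 0.89 (95% interval -0.06 to 1.84, exact p 0.229, limma adjusted p 1), 0.57 without Fcgr2b-ko 1, and 0.06 without Fcgr2b-ko 1 and 4. The step of 0.89 from Fcgr2b-ko down to WT exceeded the pooled SD of 0.66, while the steps of 0.04 to Sting-ko and 0.28 to double-deficient did not.

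Zbtb46, a factor that marks conventional dendritic cells and their precursors and is also made by endothelial cells, read -3.47, -4.17, -3.79 and -3.90 in WT and -3.48, -3.79, -3.58 and -3.22 in Fcgr2b-ko mice. Double-deficient mice read -3.49, -3.39, -3.58 and -3.91, and Sting-ko mice -2.88, -3.77, -3.51 and -4.20. The genotypes spanned similar values, and both the highest and the lowest mouse were Sting-ko. The difference between Fcgr2b-ko and WT was 0.32 (SE 0.27, exact p 0.229), and steps of 0.07, 0.00 and 0.24 between neighbouring means were below the pooled SD of 0.35.

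Siglech, a lectin gene used to mark plasmacytoid dendritic cells, read 6.72, 6.27, 6.84 and 6.79 in WT and 6.97, 6.15, 7.32 and 6.71 in Fcgr2b-ko mice. In double-deficient mice it read 6.33, 6.99, 7.14 and 6.86, and in Sting-ko mice 6.74, 6.84, 7.35 and 8.54. Sting-ko 4 stood above all other mice, and all the others lay between 6.15 and 7.35. These levels are near those of the kidney genes Lrp2 (6.59 to 7.83) and Umod (6.90 to 8.81). A second Siglech probe was well above background on 0 of 16 arrays. Whether the probe used reports Siglech was not tested, so its values are not read as a measure of plasmacytoid cells. The difference between Fcgr2b-ko and WT was 0.13 (SE 0.37, exact p 0.657), or -0.02 after scaling by array medians, and of the steps between neighbouring means the largest, 0.53 from Sting-ko down to double-deficient, equalled the pooled SD of 0.53, with 0.04 and 0.13 for the others.

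**Figure D2:**
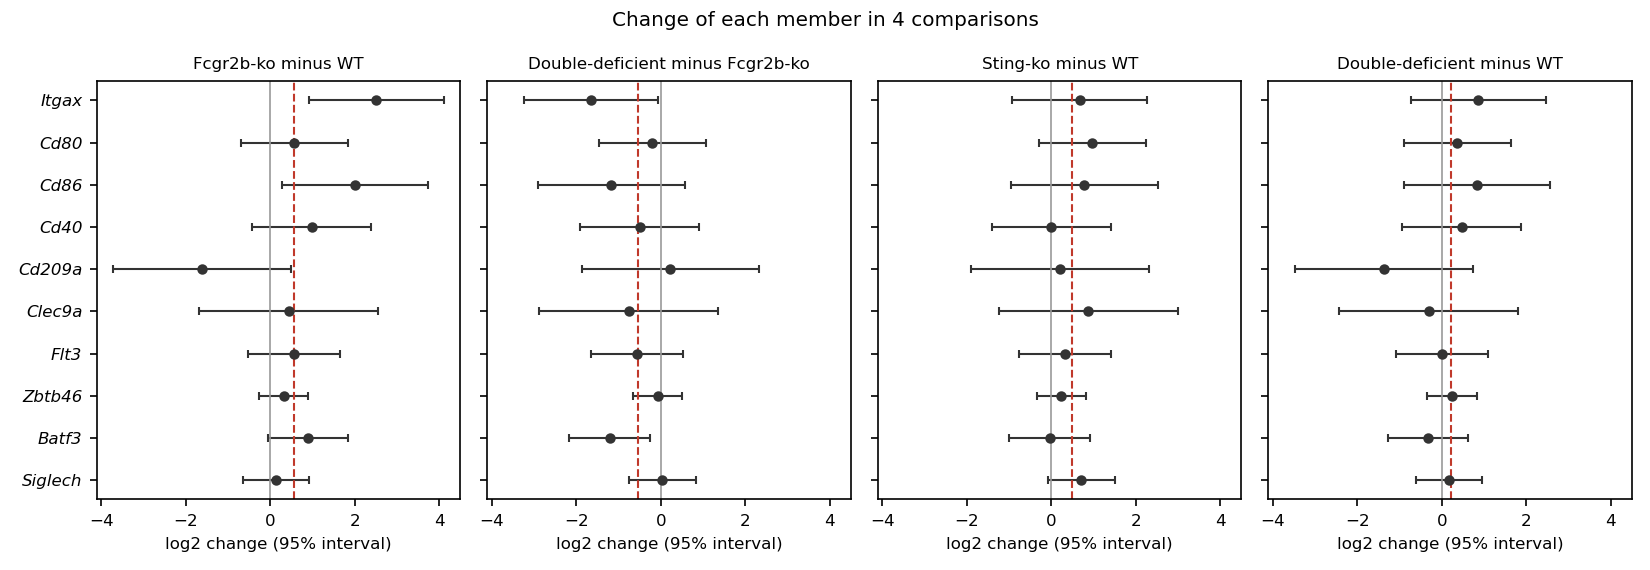
Log2 difference (horizontal axis) of each of the 10 genes in 4 comparisons, as a point with its 95% interval from limma, with a dashed line at the members' median. Intervals clear of 0 are those of Itgax (0.92 to 4.11) and Cd86 (0.27 to 3.74) in Fcgr2b-ko minus WT and of Itgax and Batf3 in double-deficient minus Fcgr2b-ko.

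Since Batf3 belongs to the AP-1 family and several members share high mice, promoters were searched for a few short motifs. RefSeq sequence (GRCm38.p6) was available for 8 of the 10 members, without Cd86 and Cd40, and the 250 bases before each start were read on both strands. A loose AP-1 pattern, TGANTCA with any middle base, was in 3 of the 8, Itgax, Cd80 and Zbtb46. It was in 6.75% of 32851 promoter windows of that length. A gamma-activated site TTCNNNGAA was in 2 (Batf3 and Siglech, 7.02% of windows), PU.1's GAGGAA in 1 (Batf3, 23.3%), the NF-kB pattern, GGGA and CC with any 4 bases between them, in 1 (Cd80, 17.6%) and the interferon-stimulated response element, GAAA repeated with any 2 bases between, in 0 (2.98%). The 3 windows that match the loose AP-1 pattern are shown, with the match in capitals. Its middle base is G in Itgax, C in Zbtb46 and T in Cd80. A narrower pattern with C or G alone in the middle, which the Cd80 letters would not match, was not counted over the windows. The match lies 56 to 50 bases before the start in Itgax (chr7:128129300-128129549, + strand), 42 to 36 in Cd80 (chr16:38458683-38458932, + strand) and 61 to 55 in Zbtb46 (chr2:181424389-181424638, - strand). A match describes letters and is not evidence of binding.
Itgax: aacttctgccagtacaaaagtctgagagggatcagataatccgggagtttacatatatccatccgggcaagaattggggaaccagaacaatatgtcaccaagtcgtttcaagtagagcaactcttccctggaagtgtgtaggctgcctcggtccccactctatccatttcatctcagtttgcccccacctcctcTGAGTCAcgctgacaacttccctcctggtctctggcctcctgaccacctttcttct
Cd80: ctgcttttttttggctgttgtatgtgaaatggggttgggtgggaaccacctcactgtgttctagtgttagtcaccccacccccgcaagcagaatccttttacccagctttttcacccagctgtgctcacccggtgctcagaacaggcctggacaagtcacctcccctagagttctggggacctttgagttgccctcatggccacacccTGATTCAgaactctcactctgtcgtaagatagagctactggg
Zbtb46: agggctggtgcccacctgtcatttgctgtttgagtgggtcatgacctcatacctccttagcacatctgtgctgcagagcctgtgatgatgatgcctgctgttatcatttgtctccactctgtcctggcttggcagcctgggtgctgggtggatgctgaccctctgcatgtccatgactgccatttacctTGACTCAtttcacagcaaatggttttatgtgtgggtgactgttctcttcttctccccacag

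The comparison of double-deficient with Fcgr2b-ko mice asks what losing STING does in the lupus-prone kidney. Itgax was 3.14-fold lower in double-deficient mice, Batf3 2.32-fold lower and Cd86 2.24-fold lower, while Cd209a, Zbtb46, Siglech and Cd80 differed by at most 0.23 on the log2 scale. Of the 10 members 8 were lower, where 42.5% of tested probes were, and their median difference was -0.53 beside 0.06 over all probes. The 2 that were higher were Cd209a by 0.23 (-0.52 without Fcgr2b-ko 2 and -0.66 without double-deficient 2) and Siglech by 0.04, and Siglech was at -0.05 after quantile normalization and in the authors' table. At least 2-fold lower were 3 members, against 2.64% of probes (939). Itgax and Batf3, the 2 members with an unadjusted limma p under 0.05, were both lower, against 1.16% of probes lower at that limit (412).

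Itgax was lower by 1.65 (95% interval -3.24 to -0.06), with 4 of 4 double-deficient mice below the Fcgr2b-ko mean, an exact permutation p of 0.143 and a limma p of 0.0433 unadjusted and 1 adjusted. Without 1 array it ran from -2.28 (without Fcgr2b-ko 2) to -1.12 (without Fcgr2b-ko 1). Batf3 was lower by 1.21 (95% interval -2.16 to -0.26), also with 4 of 4 below, an exact permutation p of 0.114 and a limma p of 0.0156 unadjusted and 1 adjusted. Cd86 was lower by 1.17 (95% interval -2.90 to 0.57, exact p 0.2), at -0.56 without Fcgr2b-ko 1. Smaller differences were found for Clec9a (-0.76, but 0.15 without Fcgr2b-ko 1, -1.44 without Fcgr2b-ko 2 and -1.41 without double-deficient 2), Flt3 (-0.56), Cd40 (-0.50), Cd80 (-0.20) and Zbtb46 (-0.07). For each of Itgax, Batf3 and Cd86, 2 of the 4 double-deficient mice lay below all Fcgr2b-ko mice and the other 2 lay within their range. No member was called by limma in this comparison, in which 0 probes were called (0%), 645 had an unadjusted p under 0.05 and 41 passed the exact Mann-Whitney test unadjusted with the fold limit. Probes lower in double-deficient mice with no overlap made up 0.281% (100), with 0 members among them.

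The same pair of mice was left out here, which by its choice moves the differences upward and is no test. Without Fcgr2b-ko 1 and 4, 7 of 10 members were higher in double-deficient mice, the median difference was 0.22, Itgax was at -0.29, Batf3 at -0.38 and Cd86 at -0.01. Leaving out single mice gave a median of -0.10 without Fcgr2b-ko 1, -0.22 without Fcgr2b-ko 4, -0.27 without double-deficient 4, -0.84 without double-deficient 2 and -0.91 without Fcgr2b-ko 2. Members higher numbered 4 without Fcgr2b-ko 1, 0 without Fcgr2b-ko 2 or double-deficient 2, and 1 without double-deficient 3. In the mice whose animal labels begin with a shared number, 9 of 10 members were lower in double-deficient 3 than in Fcgr2b-ko 4 (median -1.45) and 10 of 10 in double-deficient 4 than in Fcgr2b-ko 3 (median -0.54), a description of 2 pairs. With that number as a random block, 1 of 10 members was higher and the median was -0.81.

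Sting-ko against WT asks the same of STING where Fcgr2b is intact. Cd80 was higher by 0.97 (SE 0.60, exact p 0.314), Clec9a by 0.88 (exact p 0.286), Cd86 by 0.78 (exact p 0.4), Siglech by 0.71 (95% interval -0.07 to 1.50, exact p 0.143, limma adjusted p 0.732) and Itgax by 0.67. For Cd80 and Siglech the highest mouse was Sting-ko 4, the mouse with the lowest Fcgr2b of its group, and without it they were higher by 0.36 and 0.32. Without 1 array Itgax ran from 0.33 (without Sting-ko 1) to 1.29 (without WT 1), Cd86 from 0.32 to 1.49 and Clec9a from 0.42 to 1.58, with the same arrays at the ends, and with normexp they were at 0.41, 0.25 and 0.42. Members higher numbered 9 of 10, Cd40 among them at 0.00, against 50.1% of probes, with a median of 0.50 beside 0.00 over all probes, a background that moved to -0.24 when arrays were scaled by their medians. They numbered 6 of 10 after quantile normalization, after scaling by array medians and in the authors' table, with medians of 0.30, 0.26 and 0.31, and 7 without WT 2 or Sting-ko 1. The median was 0.21 with normexp. Called by limma were 0 members and 0 probes (0%), 0 members had an unadjusted p under 0.05 against 3.76% of probes (1339), and 127 probes, none of them a member, passed the exact Mann-Whitney test unadjusted with the fold limit. The median was 0.17 without Sting-ko 1, 0.30 without WT 3, 0.31 without WT 2 and 0.83 without WT 1.

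Double-deficient mice were compared with WT as well. The largest member difference was that of Cd209a at -1.37, the 1 that was at least 2-fold. Itgax was higher by 0.86 (exact p 0.286), from 0.54 without WT 3 to 1.48 without WT 1 and 0.57 with normexp. Cd86 was higher by 0.84 (exact p 0.429), from 0.35 without double-deficient 2 to 1.55 without WT 1 and 0.26 with normexp. In all, 7 of 10 members were higher against 50.6% of probes, and the median was 0.21 beside 0.00. Of the members 0 were called by limma, as were 0 probes (0%), 0 members had an unadjusted p under 0.05 against 0.424% of probes (151), and 63 probes, none of them a member, passed the exact Mann-Whitney test unadjusted with the fold limit. The median was 0.03 without WT 2, 0.12 without double-deficient 3, 0.13 without double-deficient 2 and 0.37 without WT 1.

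Whether loss of STING differed between Fcgr2b-deficient and Fcgr2b-intact mice was tested as an interaction. It was -2.32 for Itgax (95% interval -4.57 to -0.06, limma p 0.0447 unadjusted and 0.661 adjusted), -1.95 for Cd86 (-4.40 to 0.50) and -1.17 for Batf3 (-2.52 to 0.17). Without Fcgr2b-ko 1 and 4 these values were -0.95, -0.79 and -0.34, again smaller by the choice of the pair, and without Fcgr2b-ko 1 alone -1.78, -1.34 and -0.85. At the other end, without some 1 array, they were -2.95, -2.66 and -1.61. A single member, Cd209a, had a positive interaction against 52% of probes, and the median was -1.03 beside 0.03 over all probes. By limma 0 members and 0 probes (0%) were called, and an unadjusted p under 0.05 was reached by 1 member, Itgax, against 6.27% of probes (2234). No Mann-Whitney test was made for the interaction. The median was -0.67 without Fcgr2b-ko 1 and -0.24 without Fcgr2b-ko 1 and 4. These comparisons share groups, so their values are not independent of one another.

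Across the members, the same few mice were high. Fcgr2b-ko 1 had the highest value of all 16 mice for 6 members and the highest of its group for 8, and Fcgr2b-ko 1 and 4 were the top pair of their group for 9 of 10. Fcgr2b-ko 2 was the lowest of its group for 8 members, WT 1 the highest of its group for 7, double-deficient 2 for 8 and Sting-ko 1 for 8. The median of the members against the WT mean was 1.06, -0.64, -0.46 and -0.01 in WT mice 1 to 4 and 1.67, -0.37, 0.32 and 1.28 in Fcgr2b-ko mice. It was -0.09, 1.07, 0.28 and -0.27 in double-deficient mice and 1.26, 0.12, 0.23 and 0.15 in Sting-ko mice. Each genotype thus held 1 mouse with high members, and Fcgr2b-ko held a pair. Fcgr2b-ko 2 also had the fewest probes well above background of all arrays (28441) and Fcgr2b-ko 1 the most (35564), and the part of array brightness in the members' values was not tested.

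Markers shared by all leukocytes followed the same mice. The summed signal of 6 leukocyte genes, on the scale where the 75th percentile of an array is 1, was 19.4, 4.7, 4.46 and 6.34 in WT mice 1 to 4 and 74.4, 9.72, 9.73 and 41.5 in Fcgr2b-ko mice. It was 8.18, 19.4, 8.77 and 7.28 in double-deficient mice and 19.6, 8, 8.47 and 7.37 in Sting-ko mice. Fcgr2b-ko 1 and 4, WT 1, double-deficient 2 and Sting-ko 1, the mice with high members, were the highest of their groups here too. In WT 1, Fcgr2b-ko 1, double-deficient 2 and Sting-ko 1, the median of the kidney markers was instead the lowest of the group. Against the WT mean it was -0.47, -0.75, -0.54 and -0.33 in these mice, and 0.26 in Fcgr2b-ko 4. The part of these leukocyte and kidney levels in the members' differences was not tested.

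Macrophage and monocyte genes showed the pattern with larger values. Their median against the WT mean was 1.38, -0.91, -0.52 and 0.04 in WT and 3.56, 1.20, 0.77 and 3.50 in Fcgr2b-ko mice, 0.63, 1.42, 0.60 and 0.19 in double-deficient and 1.43, 0.22, 0.02 and -0.46 in Sting-ko mice. Interferon-inducible genes stood at 1.06, -0.89, -0.25 and 0.36 in WT and 2.27, 0.35, -0.29 and 2.0 in Fcgr2b-ko mice, and at -0.06, 0.18, 0.39 and -0.65 in double-deficient and 1.41, 0.05, 0.62 and 0.18 in Sting-ko mice. The part of these genes in the members' differences was not tested either.

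**Figure D3:**
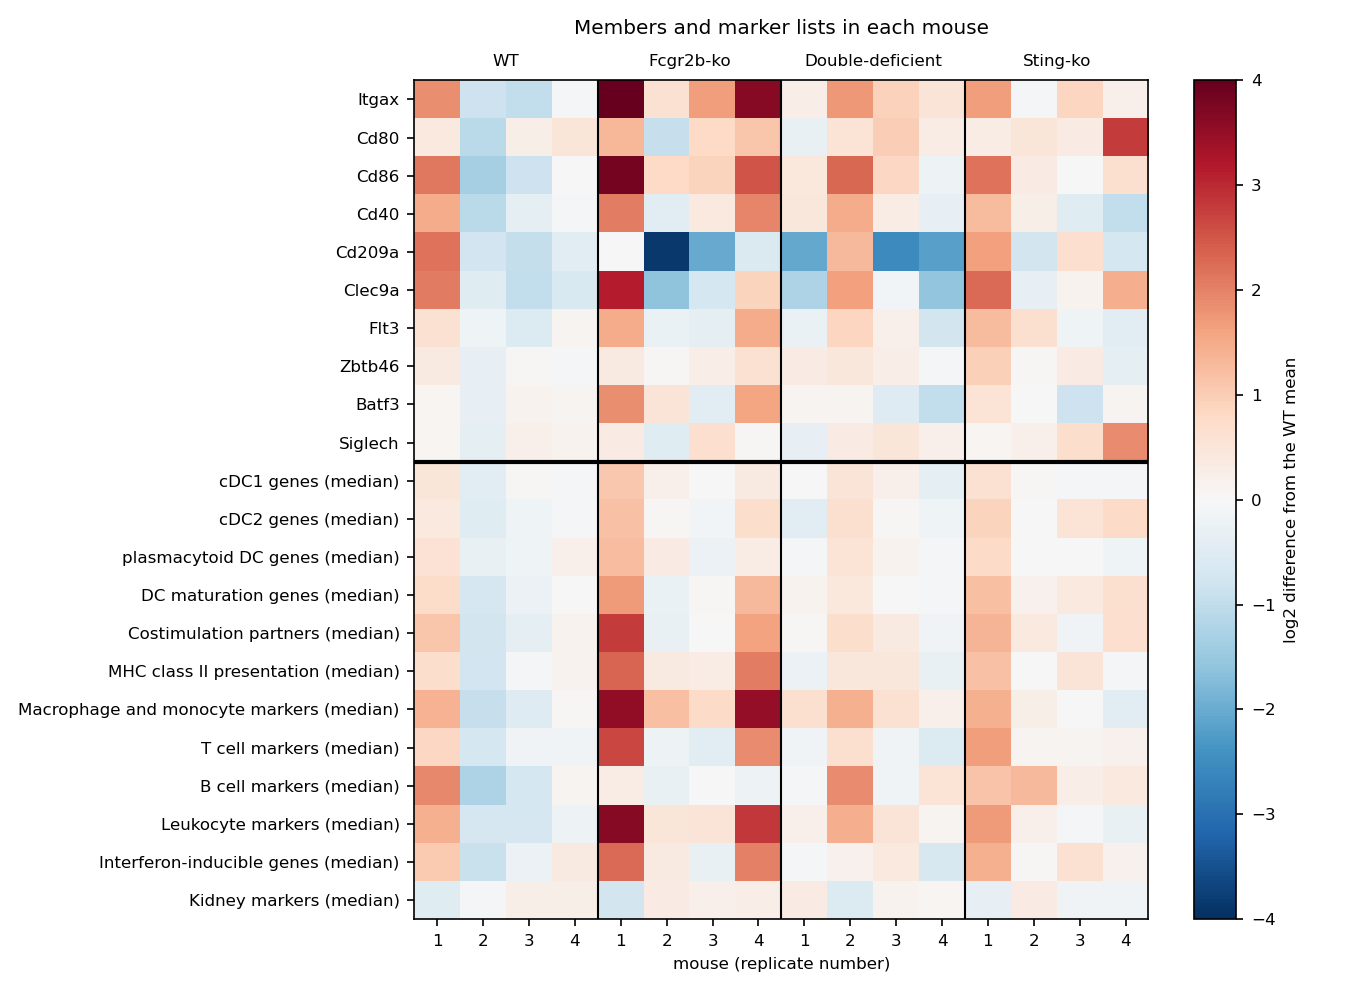
Log2 difference from the WT mean (color) for the 10 genes and the medians of 12 marker lists (rows) in each mouse (columns, 4 per genotype). Columns Fcgr2b-ko 1 and 4 are the reddest, with a members' median of 1.67 and 1.28, and WT 1, double-deficient 2 and Sting-ko 1 are red as well.

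Other genes of dendritic cells were read from lists, as counts and medians beside the medians of all probes, -0.06 for Fcgr2b-ko against WT and 0.06 for double-deficient against Fcgr2b-ko. No gene of any list was called in any of the 5 comparisons. Of each list, up to 3 genes are named for having the largest absolute difference in Fcgr2b-ko against WT. An exact p or a lack of overlap in that comparison is therefore a description of such a gene and no test. Where a named gene was not well above background in all WT and Fcgr2b-ko mice, the numbers of mice in which it was are given, and its difference is partly one against background signal and inexact. Of 50 list genes named in the text, 43 had a fold in Fcgr2b-ko against WT that moved by over 1.5 times, to a smaller size, without Fcgr2b-ko 1 and 4. With normexp, 9 moved as much to a smaller size. Without some 1 array, 23 moved as much, to a smaller or a larger size. Moves to a larger size were among these, as for Irf4 from 1.08 to 1.73 and Cd53 from 2.72 to 3.38. Named genes that turned direction are given under the dependence on processing. Of 9 measured genes of type 1 conventional dendritic cells (Xcr1 was not measured and Id2 was the most abundant), 8 were higher in Fcgr2b-ko than in WT, with a median of 0.37. They included Wdfy4, needed for cross-presentation, by 1.24, the transcription factor gene Irf8 by 0.93 and Naaa by 0.63, and against Fcgr2b-ko the double-deficient median was -0.48 with 8 of 9 lower. Of 9 genes of type 2 cells (Clec4a4 not measured, Mgl2 most abundant), 7 were higher with a median of 0.52 (0.27 with normexp), among them the transcription factor genes Irf4 by 1.08 (1 of 4 WT and 2 of 4 Fcgr2b-ko mice well above background) and Klf4 by 0.75 and the surface protein gene Cd7 by 0.71, and the double-deficient median was -0.47. Plasmacytoid cell genes were mixed, 5 of 9 higher and 4 lower, from -0.46 to 1.35, with a median of 0.20 (Runx2 not measured, Klk1 most abundant). Among them, the interleukin-3 receptor gene Il3ra was higher by 1.35 with no overlap between the groups (exact p 0.0286, beside 0.62% of all probes higher with no overlap), the transcription factor gene Spib by 1.04 (2 of 4 WT and 3 of 4 Fcgr2b-ko mice) and the interferon-inducible Bst2 by 0.80. In double-deficient mice the plasmacytoid median was 0.04, and -0.05 after quantile normalization and -0.01 in the authors' table. Which cells of the kidney gave the signal of Klk1 and the other plasmacytoid list genes was not tested.

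Genes raised in mature dendritic cells were higher in 8 of 10 cases, with a median of 0.57 in Fcgr2b-ko against WT and -0.61 in double-deficient against Fcgr2b-ko (Ccl22 and Il12b not measured, Il15ra most abundant). The maturation marker Cd83 led them at 2.11, with values of 1.16, -1.76, -1.31 and -1.0 in WT and 3.21, 0.24, 0.03 and 2.07 in Fcgr2b-ko mice, so that again mice 1 and 4 were the highest. Relb, an NF-kB subunit gene, was higher by 1.24 and the cytokine signaling inhibitor gene Socs2 by 0.88. Partners of costimulation, the B7, CD28 and TNF family ligands and receptors, were higher in 8 of 8 measured genes, with a median of 0.95, and lower in 8 of 8 in double-deficient mice, with a median of -0.94, or 0.56 and -0.60 with normexp. Of 15 listed, 7 were not measured (Ctla4, Cd40lg, Pdcd1lg2, Tnfsf4, Tnfrsf9, Cd70 and Cd27), 2 of the 8 were well above background on all arrays, and Cd274 was the most abundant. The T cell inhibitory receptor gene Pdcd1 was higher by 2.58, the B7 homolog Cd276 by 1.93 and the T cell costimulator Icos by 1.68. Each was well above background in 1 of 4 WT mice, Pdcd1 and Cd276 in 3 of 4 and Icos in 2 of 4 Fcgr2b-ko mice, and without Fcgr2b-ko 1 and 4 they were at 0.61, 0.37 and -0.45.

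Growth factors and receptors around Flt3 were higher in 6 of 7 genes with a median of 0.82, 4 of them at an unadjusted limma p under 0.05 (2.64% of all probes were higher at that limit), and had a median of -0.56 in double-deficient against Fcgr2b-ko mice (Csf2 not measured, Csf1r most abundant). Csf2rb, the shared receptor chain for GM-CSF, was higher by 2.23, the macrophage growth factor gene Csf1 by 1.24 and Csf2ra by 1.16. MHC class II genes were higher in 7 of 7 with a median of 1.15, 3 at an unadjusted p under 0.05, and lower in 7 of 7 in double-deficient mice with a median of -1.01, 4 at that limit (1.16% of all probes). H2-Ab1 was the most abundant, and H2-Aa was higher by 1.37, H2-Eb1 by 1.37 and the invariant chain gene Cd74 by 1.20 in Fcgr2b-ko against WT.

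**Figure D4:**
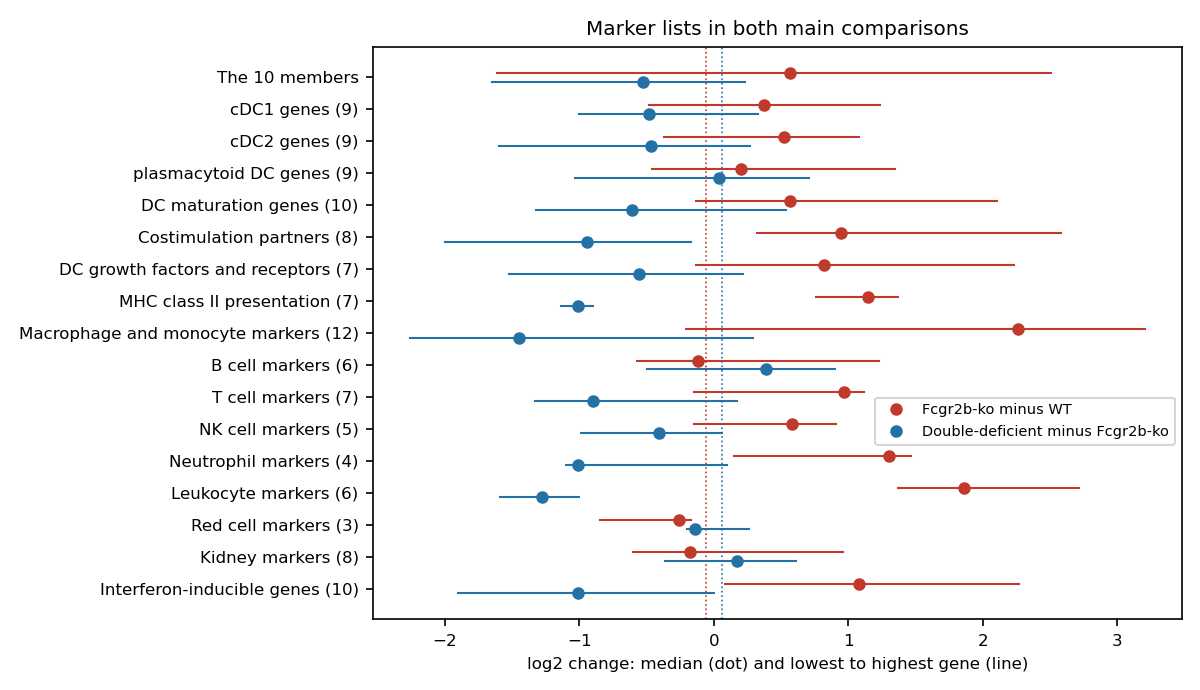
Log2 difference (horizontal axis) as the median (dot) and the range from the lowest to the highest gene (line) of each list, with the number of measured genes in brackets, for Fcgr2b-ko minus WT and double-deficient minus Fcgr2b-ko, and dotted lines at the medians of all probes. Macrophage and monocyte markers have the largest medians of these lists, 2.26 and -1.45, and the members lie at 0.57 and -0.53.

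Lists of other cells were read in the same way, since CD11c, CD80, CD86 and CD40 are not confined to dendritic cells. Macrophage and monocyte markers were higher in Fcgr2b-ko than in WT in 10 of 12 genes with a median of 2.26, 9 of them at an unadjusted limma p under 0.05 and 3 with no overlap between the groups, where 43.4% of all probes were higher, 2.64% at that p and 0.62% with no overlap. Their double-deficient median against Fcgr2b-ko was -1.45, with 5 lower at that p against 1.16% of all probes (Cd163 not measured, Ly6c2 most abundant). The lysozyme gene Lyz2 was 9.23-fold higher (3.21, exact p 0.0286, limma adjusted p 0.473). It was named for the largest difference of its list in this comparison, so its exact p is no test. The mannose receptor gene Mrc1 was higher by 2.68 (3 of 4 WT and 4 of 4 Fcgr2b-ko mice well above background) and the F4/80 gene Adgre1 by 2.56. Leukocyte markers were higher in 6 of 6 with a median of 1.86, all 6 at an unadjusted p under 0.05 (again beside 2.64% of all probes), and lower in 6 of 6 in double-deficient mice with a median of -1.28. The most abundant, Coro1a, was higher by 1.82, Cd53 by 2.72 (2 of 4 WT and 4 of 4 Fcgr2b-ko mice well above background), Laptm5 by 2.12 and Ptprc, which encodes CD45, by 1.89, the last 3 at 1.40, 0.64 and 0.34 without Fcgr2b-ko 1 and 4.

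T cell markers were higher in 6 of 7 with a median of 0.97 and had a double-deficient median of -0.90 (Trat1 not measured, Cd4 most abundant), with Cd6 higher by 1.12, Cd3d by 1.04 and Lck by 1.01. Without Fcgr2b-ko 1 and 4, Cd6, Cd3d and Lck were at -0.01, -0.56 and -0.33. NK cell markers were higher in 4 of 5 with a median of 0.58 and -0.41 (Ncr1 and Eomes not measured, Prf1 most abundant), with Gzma at 0.91, Nkg7 at 0.86 and Klrb1c at 0.58 (2 of 4 WT and 3 of 4 Fcgr2b-ko mice well above background), the last at -0.02 with normexp. Neutrophil markers were higher in 4 of 4 with a median of 1.30 and -1.01 (Cxcr2 and Mmp9 not measured, Ly6g not named on the array, Csf3r most abundant), with S100a8 at 1.47, S100a9 at 1.35 and Retnlg at 1.25 (1 of 4 WT and 3 of 4 Fcgr2b-ko mice well above background). B cell markers were higher in 2 of 6 with a median of -0.12, near the -0.06 of all probes, and 0.39, with 0 genes at an unadjusted p under 0.05 in either comparison (Cd79a and Blk not measured). Their most abundant, Cd79b, was at 1.23, Ms4a1 at 0.38 (3 of 4 WT and 4 of 4 Fcgr2b-ko mice well above background) and Fcer2a at -0.57 (1 of 4 in each).

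Interferon-inducible genes were higher in 10 of 10 in Fcgr2b-ko against WT with a median of 1.08, 4 at an unadjusted p under 0.05 (2.64% of all probes), and lower in 9 of 10 in double-deficient mice with a median of -1.01, 4 at that limit (1.16% of all probes). The antiviral genes Oas2 and Oas1a were higher by 2.27 and 1.86, and the most abundant, the interferon regulator gene Irf7, by 1.21. Red cell markers were higher in 0 of 3 with a median of -0.26 and -0.14 (Hbb-bs not named on the array), with the most abundant, Hba-a1, at -0.26, Slc4a1 at -0.85 and Alas2 at -0.17. Kidney markers were higher in 3 of 8 with a median of -0.18, which was 0.02 after quantile normalization and 0.02 in the authors' table, and with a double-deficient median of 0.17. The podocyte gene Nphs1 was higher by 0.96, the proximal tubule transporter genes Slc22a6 and Slc34a1 were at -0.60 and -0.51, and the most abundant, Umod, was at 0.12 and at -0.04 after scaling by array medians. Leaving out 1 array moved Slc22a6 between -1.11 and 0.08 and Slc34a1 between -0.83 and 0.08. Without Fcgr2b-ko 1 and 4, Slc22a6 and Slc34a1 were at 0.49 and 0.45. In the other comparisons, list medians ran from -0.43 (neutrophil) to 0.85 (B cell, 0.25 with normexp) for Sting-ko against WT and from -0.46 (red cell) to 0.70 (macrophage) for double-deficient against WT. Interactions ran from -1.88 (macrophage) to 0.17 (kidney, -0.17 after quantile normalization and in the authors' table).

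Both slides held mice of each genotype, so differences could be read within a slide, with few mice and no test. Itgax was higher in Fcgr2b-ko than in WT by 2.28 on slide 1 (3 against 2 mice) and by 2.20 on slide 2 (1 against 2). For Cd86 the differences were 1.98 and 1.28, for Cd209a -2.16 and -1.32, for Batf3 1.45 and -0.54, and for Flt3 0.67 and -0.16. Batf3 and Flt3 thus differed in direction between the slides, and the other members did not. In double-deficient against Fcgr2b-ko mice, Itgax was at -2.52 on slide 1 (1 against 3 mice) and -0.62 on slide 2 (3 against 1), Cd86 at -1.96 and 0.10, and Batf3 at -1.22 and -0.05. Besides Cd86, the direction differed for Clec9a (-2.04 and 0.68), Flt3 (-1.17 and 0.495), Cd40 (-0.72 and 0.10), Cd209a (-0.59 and 0.87) and Zbtb46 (0.01 and -0.04). Fcgr2b-ko 1 and 4 were both on slide 1.

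The genes most like Itgax and Siglech over the 16 arrays were found by Pearson's r among 16382 genes, as a description with no test, since all values share the arrays and the high mice. For Itgax they were Nfam1 (0.98), Pirb (0.98), Slc15a3 (0.98), Lcp2 (0.97) and Arhgap25 (0.97), and Pirb encodes an inhibitory receptor and Lcp2 a signaling adaptor of leukocytes. For Siglech they were Hccs (0.99), Bfar (0.99), Snhg7 (0.99), Ndor1 (0.99) and Dnase2a (0.98). None of these is among the genes listed for plasmacytoid cells, Hccs encodes a mitochondrial enzyme, and a second Siglech probe was well above background on 0 of 16 arrays.

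Of the 19 member probes 15 were tested, 7 members had several probes, and 4 of them several tested ones. The second Itgax probe was well above background on 2 arrays, Fcgr2b-ko 1 and 4, and the other 2 Cd80 probes on 1 array each. Both other Cd86 probes, well above background in 1 and 2 of 4 WT mice and in 3 and 4 of 4 Fcgr2b-ko mice, were higher in Fcgr2b-ko than in WT, by 2.11 and 1.63, and lower in double-deficient than in Fcgr2b-ko mice, at -0.95 and -0.98. These values are partly differences against background signal and inexact. The second Clec9a probe (12 of 16 arrays, 2 of 4 WT mice) differed by 0.82 and -0.64. The second Zbtb46 probe (7 of 16 arrays, 1 of 4 WT mice) differed by 0.45 and -0.13. These differences too are partly ones against background signal and inexact. The second Cd209a probe was well above background in 1 of 4 mice of each of the 3 genotypes compared, so its -0.69 and 0.07 set mostly background signals against each other.

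**Figure D5:**
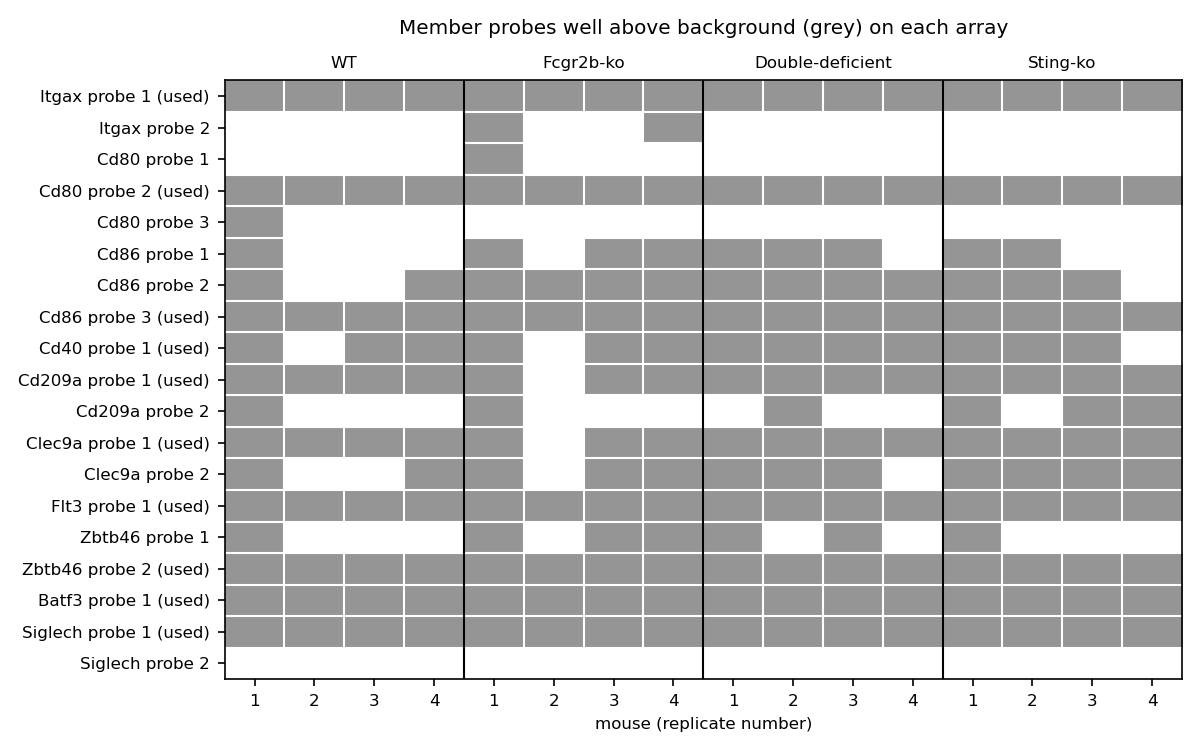
Each of the 19 member probes (rows) on each of the 16 arrays (columns, 4 mice per genotype), grey where the signal was well above background. The second Itgax probe is grey in Fcgr2b-ko 1 and 4 alone, and the second Siglech probe on none of the arrays.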

How the data were processed

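Kidney RNA of 16 mice was measured on one-color arrays. The deposited scanner files hold processed signals as intensity, written by the authors with Agilent Feature Extraction 11.0. The authors' value table holds log2 normalized values, and each of its columns was checked against its own scanner file (lowest correlation 0.9975). Signals were log2 transformed, averaged over copies of a probe and scaled by subtracting each array's 75th percentile. All 16 arrays were fitted by genotype with limma 3.58.1 in R 4.3.3, p-values were adjusted by Benjamini-Hochberg over 35628 probes, and calls needed an adjusted p under 0.05 and at least a 2-fold difference. Exact two-sided permutation tests of 4 against 4 mice used Python 3.11.15 and numpy 2.4.6, with pandas 2.3.3, scipy 1.17.1 and matplotlib 3.10.9 for tables and figures. Arrays give no counts, so their number limits the precision.

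Named genes were all members, Fcgr2b and Sting1, up to 3 genes of each list with the largest difference between Fcgr2b-ko and WT, the most abundant genes of some lists, and the 5 most like Itgax and Siglech. Members and lists were chosen with earlier results of these data known. Lists covered conventional and plasmacytoid dendritic cells, maturation, costimulation partners, growth factors, MHC class II, macrophages, B, T and NK cells, neutrophils, leukocytes, red cells, kidney and interferon-inducible genes, and 1 gene each of the planned red cell and kidney lists was left out of them after the results were known. Alternatives were normexp (offset 50) on median spot and background signals in place of processed signals, quantile and array-median scaling, the authors' table, other filters on dim probes, other eBayes settings, no fold limit, the median probe of a gene, the groups compared alone, Mann-Whitney tests, slide, replicate number, animal label and Y-linked signal as terms, leaving out each array, and, added after seeing the data, leaving out Fcgr2b-ko 1 and 4 together. Proteins and the study's stainings were not used here.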

Additional observations from a re-analysis of the deposited data

Results flagged for a closer look

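In each group of 4 mice, the gap between the highest or lowest mouse and its nearest neighbour was divided by the group's range, and 21 of 316 groups had a mouse standing apart at the 95% limit, 5 of them among 40 member groups. Chance alone sets apart about 1 in 20 groups, the groups are not independent, and no cause was tested.

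Among the members, Cd80 was low in WT 2 (-2.71, nearest mouse -1.40, ratio 0.831) and high in Sting-ko 4 (1.18, nearest -1.15, ratio 0.933). Cd209a was high in double-deficient 2 (-0.96, nearest -4.31, ratio 0.869), Clec9a was high in WT 1 (-0.74, nearest -3.33, ratio 0.845), and Batf3 was low in WT 2 (-1.50, nearest -1.08, ratio 0.877).

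Among the list medians, growth factors and receptors (ratio 0.835) and T cell markers (0.958) were high in Sting-ko 1, and NK cell markers were high in WT 1 (0.835) and in double-deficient 2 (0.917). Kidney markers were low in Fcgr2b-ko 1 (0.885).

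Sting-ko 1 also stood high for 5 genes of the lists, Irf8 (ratio 0.88), Cd83 (0.913), Csf2rb (0.937), Lck (0.936) and Coro1a (0.87). Sting-ko 2 was low for Klf4 (0.851) and Il3ra (0.957). Double-deficient 2 was high for Mrc1 (0.839), double-deficient 3 for Nphs1 (0.962) and Oas2 (0.914), and Fcgr2b-ko 1 for Ms4a1 (0.963, -0.84 against a nearest mouse of -3.17).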

How the results depend on the processing

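Of 33 alternatives, 16 of them leaving out 1 array each, 30 or 31 gave a value for each of the 31 member results, and none of these was called. Itgax in Fcgr2b-ko against WT stayed higher, between 1.15 and 3.15, with a smallest adjusted p of 0.162, and Cd86 stayed higher, between 0.85 and 2.71. The largest shift of the median of all probes was 0.28, under array-median scaling. Of the 31 member results, 12 changed direction under some alternative. The cause was not tested unless stated.

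Without Fcgr2b-ko 1 and 4, 1 probe was called in Fcgr2b-ko against WT, with 5 members higher. There, Cd80 was at -0.07, Cd40 -0.03, Clec9a -1.14, Flt3 -0.33, Wdfy4 -0.14, Irf4 -0.25, Klf4 -0.07, Bst2 -0.15, Icos -0.45, Fcer2a 0.14, Ms4a1 -0.23, Cd6 -0.01, Cd3d -0.56, Lck -0.33, Gzma -0.03, Nkg7 -0.60, S100a9 -0.14, Slc22a6 0.49 and Slc34a1 0.45. In double-deficient against Fcgr2b-ko, 7 members were higher with a median of 0.22, and Cd80 was at 0.44, Cd40 0.51, Clec9a 0.83, Flt3 0.35 and Zbtb46 0.10. Double-deficient against WT had 3 called probes, and the interaction had 3 members positive and a median of -0.24. Fewer mice enter this fit, and what is left of the Fcgr2b-ko group is 2 mice.

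The 18 probes called in Fcgr2b-ko against WT became 5 with normexp, 7 in the authors' table, 0 among probes well above background on all arrays, 0 with only the groups compared, 3 with animal label as a random block (correlation 0.827, from 3 pairs of mice), 8 with Y-linked signal as a covariate, 144 by Mann-Whitney unadjusted, 0 after Benjamini-Hochberg, and 0 to 37 without 1 array. Mann-Whitney unadjusted called 41 probes in double-deficient against Fcgr2b-ko, 127 in Sting-ko against WT and 63 in double-deficient against WT. The last comparison had 1 with normexp, 1 among probes seen on all arrays, 3 with only the groups compared and 0 to 1 without 1 array. The test is not defined for the interaction.

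Members higher in double-deficient against Fcgr2b-ko became 1 with quantile normalization, the authors' table, probes seen on all arrays (where fewer members are tested), animal label and Y-linked signal, and 0 to 4 without 1 array. Members positive in the interaction became 0 with normexp, probes seen on all arrays, animal label and Y-linked signal, and 0 to 1 without 1 array.

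In double-deficient against Fcgr2b-ko, Cd209a was at -0.69 with animal label and -0.04 with Y-linked signal, Zbtb46 at 0.03 with slide as a block, and Siglech at -0.05 with quantile normalization, -0.05 in the authors' table and -0.32 with slide as a block. In Fcgr2b-ko against WT, Siglech was at -0.02 and Umod at -0.04 with array-median scaling, Umod at -0.06 with Y-linked signal and Klrb1c at -0.02 with normexp. Without 1 array, ranges across 0 in Fcgr2b-ko against WT were -0.46 to 1.14 for Clec9a, -0.04 to 0.35 for Siglech, -1.0 to 0.01 for Fcer2a, -0.21 to 1.12 for Ms4a1, -0.04 to 1.48 for Klrb1c, -1.11 to 0.08 for Slc22a6, -0.83 to 0.08 for Slc34a1, -0.29 to 0.04 for Alas2 and -0.14 to 0.34 for Umod. In double-deficient against Fcgr2b-ko they were -0.69 to 0.05 for Cd80, -0.66 to 0.77 for Cd209a, -1.44 to 0.15 for Clec9a, -0.16 to 0.03 for Zbtb46 and -0.17 to 0.22 for Siglech.

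With the replicate number as a block, 16 probes were called in Fcgr2b-ko against WT. Equal numbers did not pair mice in these correlations: 11 of 24 pairs of arrays with equal numbers had a correlation above 0.1, the lowest was -0.603, and 5 of 16 arrays were closest to one of their own number. In the authors' table, arrays with equal numbers shared 1 median in all 4 genotypes. It was 5.54, 4.93, 5.14 and 5.38 for numbers 1 to 4. Signal over background limits Cd40, Cd209a and Clec9a, which were not well above background on every array.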
